A study of Mus musculus with 4 samples.

Results

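The RNA of a preleptotene spermatocyte library (PlpSC) was set against that of a spermatogonia library (SG), gene by gene, in mouse testis. Genes entered when they were listed at 5 FPKM or more in either library, FPKM being fragment counts normalised to transcript length and to the mapped fragments of the library. Symbols of short RNA genes (Snord, Snora, Scarna, Mir, Rnu, Rn45s, Rn7 and Rmrp) were left out. This kept 10487 of the 24426 genes in the table. Of them, 8441 reached 5 FPKM in both libraries, 1093 only in labelled PlpSC and 953 only in labelled SG. A gene that entered through 1 library alone had to differ to some extent, so such genes are read as a description. Just inside the limit were Creb3l2 at 5.00 FPKM and Kif5a at 5.01 FPKM in labelled PlpSC, and the genes nearest to it outside were Tfap4 at 5.00 FPKM, rounded, and Ccnd2 at 4.99 FPKM in the same library.

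Spermatogonia are the mitotic germ cells of the seminiferous tubule. Retinoic acid commits them to meiosis, and as preleptotene spermatocytes they replicate their DNA for the last time before homologous chromosomes break, align and recombine. In pachytene the X and Y chromosomes are silenced inside the sex body, while genes for the later sperm tail and acrosome are transcribed on the autosomes. In juvenile mice these stages appear in order as the first wave of spermatogenesis advances with age.

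Cells came from C57BL/6 male mice with no treatment or engineered allele, 1 library per stage. By the study's methods, the PlpSC library came from 5 mice aged 17 days and the SG library from 30 pooled mice aged 7 days. On those terms stage and age cannot be told apart. The age and mice of the library labelled SG are as uncertain as its label, which is treated below. After a culture step in which Sertoli cells adhere, stages were isolated by their sedimentation at unit gravity (STA-PUT), and total RNA depleted of ribosomal RNA gave directional libraries. Leptotene/zygotene (L/ZSC) and pachytene (PaSC) spermatocyte libraries, which may share the 5 mice of the PlpSC library, are used below only to place a gene.

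The label SG was not borne out by the data, so each column is called the library labelled with its stage. In the lncRNA table published with the study, all 653 lncRNAs at 0.5 FPKM or more in both columns had labelled SG values within 1% of a single ratio to its PaSC column. The labelled PlpSC column equalled the PlpSC column of that table for 642 of 642 lncRNAs. The labelled L/ZSC and labelled PaSC columns did not match their own columns of that table either, with 10 of 559 and 5 of 577 lncRNAs within 1%, so a place among the 4 libraries is one among labels. Over the 10487 genes, the SD of the log2 ratio to labelled SG was 1.35 for labelled PlpSC, 0.71 for labelled L/ZSC and 1.20 for labelled PaSC. Between labelled L/ZSC and labelled PlpSC it was 1.79. Markers of undifferentiated spermatogonia summed to 94.0 FPKM in labelled PlpSC and 108 FPKM in labelled SG, and 12 of the 22 were highest of the 4 libraries in labelled PlpSC, against 4 in labelled SG. Of the 10101 autosomal genes that entered, 4207 were highest in labelled PlpSC and 1762 in labelled SG, so these counts say little by themselves. Only 6 of the 22 markers reached 5 FPKM in either library. Pachytene spermatocyte genes summed to 2869 FPKM in labelled PlpSC and 12481 FPKM in labelled SG.

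Levels were compared as log2((labelled PlpSC + 0.5)/(labelled SG + 0.5)), called the log2 ratio, which understates the difference of low genes. A gene was counted as higher or lower in labelled PlpSC when this ratio passed 1.5-fold. With 1 library on each side there was no replicate error and no test, and the depth of the libraries is unknown because the table holds no read counts. Differences are therefore those of 2 libraries, and fewer cells of a type cannot be told apart from less RNA per cell. The lists of genes are described by counts and medians beside those of all 10487 genes.

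Scaling bears on every sign. The short RNA genes left out held 74.6% of the labelled PlpSC sum of FPKM, against 37.3% of the labelled SG sum, while the 10487 genes summed to 644432 FPKM in labelled PlpSC against 630904 FPKM in labelled SG. Scaling each column to the same sum over all genes moved the median log2 ratio by -1.27, scaling by the upper quartile by 0.21 and scaling by median ratios by 0.11. On that all-gene scaling, 11 of the gene list medians above 1.5-fold turned below 0 and 10 remained above it. Values below are on the deposited scale, and the all-gene value of a list is added where it has the other sign. Differences between genes of the same libraries change with scaling only through the added 0.5.

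Of the 10487 genes, 2712 (25.9%) were higher and 3438 (32.8%) were lower in labelled PlpSC, and 4337 differed by less than 1.5-fold. The median log2 ratio was -0.08, with quartiles of -0.87 and 0.62 and 5th and 95th percentiles of -2.71 and 1.96. More than 4-fold, 508 genes (4.84%) were higher and 1008 (9.61%) lower. The 508 had a median of 17.2 FPKM in labelled PlpSC and 2.03 FPKM in labelled SG, and 478 of them were highest of the 4 libraries in labelled PlpSC. The 1008 had a median of 5.77 FPKM in labelled PlpSC and 43.5 FPKM in labelled SG, and 1005 of them were lowest in labelled PlpSC. Of these 1008, 981 were higher in labelled L/ZSC than in labelled SG. Both sets were chosen by the ratio of labelled PlpSC to labelled SG, so a highest or lowest place in labelled PlpSC was partly fixed. Of 10101 autosomal genes, 4207 were highest in labelled PlpSC. Shares over all genes were not counted for lowest places or for labelled L/ZSC above labelled SG. The lower tail ended sooner than the upper one. Of the genes, 245 lay between -3.5 and -3, 91 between -4 and -3.5, and 5 below -4, 2 of these listed at 0 in labelled PlpSC, against 90, 50 and 43 genes in the mirrored ranges above 0.

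**Figure D1:**
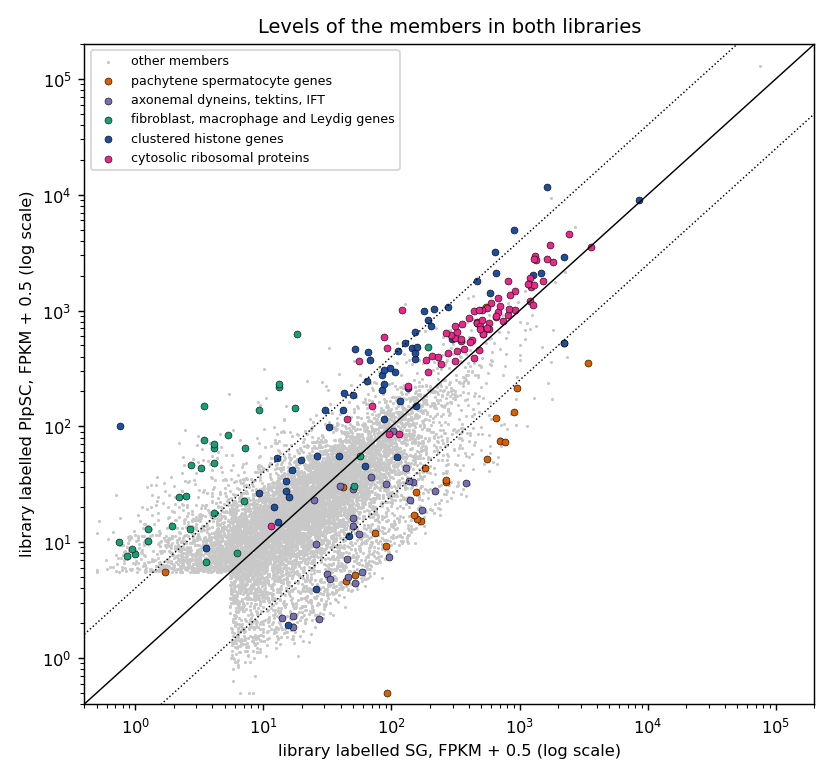
Each point is 1 of the 10487 genes, with FPKM + 0.5 in the library labelled PlpSC on the vertical axis and in that labelled SG on the horizontal axis, both log scales. The solid line marks equal levels and the dotted lines 4-fold. Pachytene, dynein and tektin genes lie mostly below the lower dotted line, as do 4 of the 14 intraflagellar transport (IFT) genes, and fibroblast, macrophage and Leydig genes mostly above the upper one. Ribosomal protein genes lie near or above the solid line, and their median lies below it on the all-gene scaling.

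Among the highest genes some differed little and others by more than 4-fold, with log2 ratios of 2.84 for Hist1h4c and -3.27 for Ldhc. Rpph1, the RNA component of RNase P, had 129025 FPKM in labelled PlpSC and 75277 FPKM in labelled SG. The histone gene Hist1h4c came next in labelled PlpSC with 11741 FPKM, against 1638 FPKM in labelled SG. The H2B gene of the testis Hist1h2ba had 9042 FPKM in labelled PlpSC and 8494 FPKM in labelled SG, a log2 ratio of 0.09 that was below 0 on the all-gene scaling. The sperm lactate dehydrogenase gene Ldhc had 354 FPKM in labelled PlpSC and 3409 FPKM in labelled SG.

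The largest positive log2 ratio was that of the H4 gene Hist1h4n at 7.06, with 101 FPKM in labelled PlpSC and 0.259 FPKM in labelled SG. After it came Dcn, which encodes the matrix proteoglycan decorin, at 5.45, with 150.2 FPKM in labelled PlpSC and 2.94 FPKM in labelled SG. Vcam1, a cell adhesion molecule of stromal cells, followed at 5.24, and Insl3, the peptide hormone of Leydig cells, reached 632 FPKM in labelled PlpSC against 17.7 FPKM in labelled SG. Insl3 was higher still in labelled PaSC, at 1834 FPKM. The remaining 8 of the 12 largest were Plac8, Igfbp6, Cd24a, Akr1cl, Eif3j1, S100a6, Apoc1 and Wfdc17, at 4.60 to 5.16. Eif3j1, which encodes a translation initiation subunit, is a near-identical copy of another gene and is uncertain. It had 14.6 FPKM in labelled PlpSC and 0.0219 FPKM in labelled SG.

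The smallest was 1700003C15Rik at -4.17, with 0.531 FPKM in labelled PlpSC and 17.99 FPKM in labelled SG. Of the 12 smallest, 6 carried RIKEN clone names. Among the others, Atp8b3, a phospholipid flippase of the sperm head, had 24.8 FPKM in labelled PlpSC and 381 FPKM in labelled SG. Hspb9, a small heat shock protein of testis, had 46.9 FPKM in labelled PlpSC and 661 FPKM in labelled SG. Genes listed at exactly 0 in a library are given no fold, since such a 0 can be a failed estimate. Nkain4 and Rnaset2a were listed at 0 in labelled SG, with 5.31 and 11.5 FPKM in labelled PlpSC. Tcte3, Gm21586, 1700024G13Rik and 4930441J16Rik were listed at 0 in labelled PlpSC, with 91.9, 7.80, 7.28 and 6.04 FPKM in labelled SG. Rnaset2a and Tcte3 have near-identical copies, so their values are uncertain.

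Genes of pachytene spermatocytes and of the sperm tail lay low. Of 28 pachytene genes on the list, 23 reached 5 FPKM, and 20 were lower and 2 higher in labelled PlpSC, with a median log2 ratio of -2.999. Crisp2, a secretory protein of the acrosome, had 74.9 FPKM in labelled PlpSC and 704 FPKM in labelled SG. Piwil1, the PIWI protein of the pachytene stage, had 32.7 FPKM in labelled PlpSC and 265 FPKM in labelled SG. Ccna1, the meiotic cyclin A1, had 4.08 FPKM in labelled PlpSC and 43.7 FPKM in labelled SG. The higher ones were Tex101, a germ cell surface protein, with 1082 FPKM in labelled PlpSC and 544 FPKM in labelled SG and below 0 on the all-gene scaling, and Calr3, a testis calreticulin, with 5.05 FPKM in labelled PlpSC and 1.22 FPKM in labelled SG.

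All 9 axonemal dynein heavy chain genes that reached 5 FPKM, which encode the motors that bend the sperm tail, were lower in labelled PlpSC, with a median log2 ratio of -3.21. Of the 9, 4 reached 5 FPKM in labelled SG only, so these could only lie below 0. Dnah8 had 32.1 FPKM in labelled PlpSC and 379 FPKM in labelled SG, and Dnah17 had 6.91 FPKM in labelled PlpSC and 95.4 FPKM in labelled SG. The tektins, filaments along the doublet microtubules, were lower in 5 of 5, with a median of -2.89, and 4 of the 5 likewise reached 5 FPKM in labelled SG only. Tekt1 had 18.6 FPKM in labelled PlpSC and 174 FPKM in labelled SG. The 5 members of the CatSper calcium channel that reached 5 FPKM were all lower, with a median of -2.86. Intraflagellar transport genes, which build cilia and the tail, differed less, with 11 of 14 lower and a median of -1.53. Ift140 had 27.4 FPKM in labelled PlpSC and 218 FPKM in labelled SG, whereas Ift52 had 22.8 FPKM in labelled PlpSC and 24.2 FPKM in labelled SG.

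Grouping all genes by the letters of their symbol gave 126 families of at least 10 genes, 80 of them with a median below 0. The lowest was Cfap, the cilia and flagella associated proteins, with 20 of 20 lower and a median of -3.03. Adam followed at -3.03, which turned to 0.14 when genes at 1 FPKM in either library entered, Prss at -2.60, Spata at -1.72 and Pde at -1.63. The Adam family was split. The sperm surface protease relatives Adam5 and Adam3 had 23.5 and 14.8 FPKM in labelled PlpSC, against 293 and 170 FPKM in labelled SG, while Adam23 had 10.3 FPKM in labelled PlpSC and 0.422 FPKM in labelled SG. The testis serine protease gene Prss50 was also opposite to its family, with 283 FPKM in labelled PlpSC and 38.2 FPKM in labelled SG. RIKEN testis clones of the series of 1700003C15Rik had 91 of 103 genes lower, with a median of -2.72, though 53 of the 103 reached 5 FPKM in 1 library only. Those of the series of 4930567K20Rik and 4933402N22Rik had 74 of 85 lower, and 45 of the 85 reached it in 1 library only. Their median of -2.26 was -1.60 with genes at 1 FPKM in either library and -1.54 with 5 FPKM required in both.

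The lncRNA gene Rbakdn, on which the study turns, ranked 10352 of 10487 from the highest log2 ratio, at -3.40. It had 171 FPKM in labelled PlpSC and 1803 FPKM in labelled SG. Ptbp2, a splicing regulator of neurons and germ cells, had 63.7 FPKM in labelled PlpSC and 103 FPKM in labelled SG. The other PTB genes, Ptbp1 and Ptbp3, lay within 1.5-fold.

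The piRNA pathway, which silences transposons in germ cells, had 14 of 19 genes lower in labelled PlpSC, 1 higher and a median of -1.27. The Tudor protein gene Tdrd6 had 16.7 FPKM in labelled PlpSC and 237 FPKM in labelled SG. Mael, a piRNA factor of the nuage, had 277 FPKM in labelled PlpSC and 747 FPKM in labelled SG. The exception was the helicase gene Mov10l1 with 101 FPKM in labelled PlpSC and 62.0 FPKM in labelled SG, a log2 ratio of 0.70 that was below 0 on the all-gene scaling.

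**Figure D2:**
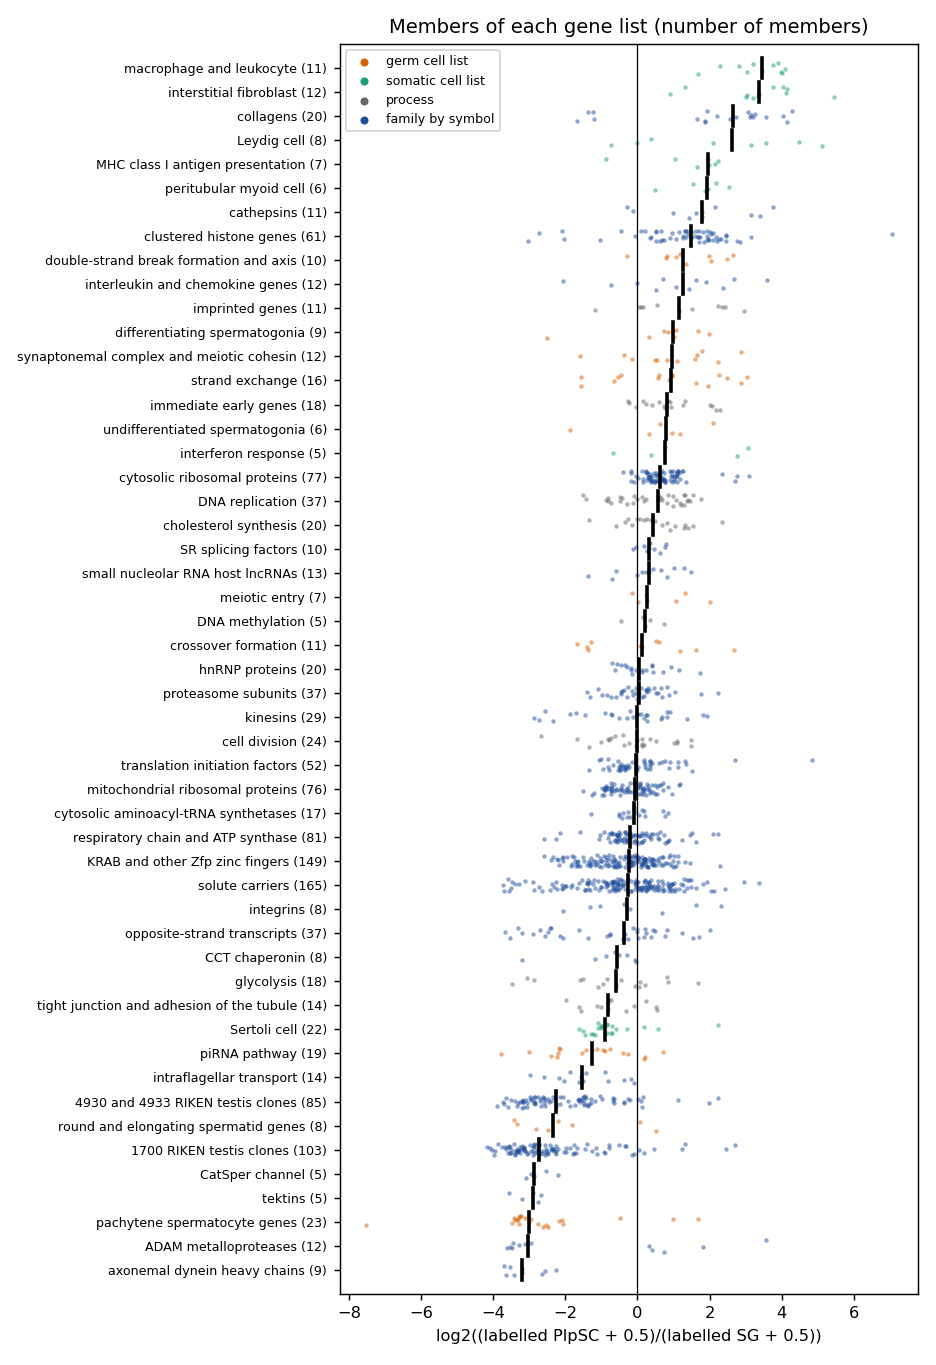
Each row is a gene list with at least 5 genes at 5 FPKM, each point a gene and each black bar the list's median, on the log2 ratio of labelled PlpSC to labelled SG, with the number of genes in parentheses. Medians run from -3.21 for axonemal dynein heavy chains to 3.46 for macrophage and leukocyte genes. On the all-gene scaling the medians between 0 and those of clustered histone genes lie below 0.

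Genes of early meiotic prophase stood on the other side. Double-strand break and axis genes, which cut the chromosomes and hold the loops, had 9 of 10 higher in labelled PlpSC, none lower and a median of 1.26 (-0.03 on the all-gene scaling). Of the 10, 2 reached 5 FPKM in labelled PlpSC only, Prdm9 among them, and could only lie above 0. Prdm9, which places the breaks, had 15.3 FPKM in labelled PlpSC and 2.34 FPKM in labelled SG. Zcwpw1, a reader of the marks set by PRDM9, had 98.7 FPKM in labelled PlpSC and 23.6 FPKM in labelled SG. Spo11, which encodes the enzyme that cuts, was the exception with 49.4 FPKM in labelled PlpSC and 60.02 FPKM in labelled SG.

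Strand exchange genes were higher in 10 of 16 and lower in 3, with a median of 0.92 (-0.40 on the all-gene scaling). Of the 16, 2 reached 5 FPKM in 1 library only. Dmc1, the meiotic recombinase, had 98.4 FPKM in labelled PlpSC and 11.6 FPKM in labelled SG. Psmc3ip (HOP2), a partner of DMC1, was lower, with 54.5 FPKM in labelled PlpSC and 162 FPKM in labelled SG.

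Synaptonemal complex and meiotic cohesin genes had 7 of 12 higher and 1 lower, with a median of 0.95 (-0.37 on the all-gene scaling). Sycp3, the axial element protein, had 709 FPKM in labelled PlpSC and 223 FPKM in labelled SG. Rad21l, a meiotic kleisin, had 29.2 FPKM in labelled PlpSC and 3.59 FPKM in labelled SG. It entered through labelled PlpSC alone and could only lie above 0. Syce1, of the central element, was the lower one, with 86.7 FPKM in labelled PlpSC and 260 FPKM in labelled SG. Crossover genes were divided evenly, with 4 higher and 4 lower of 11 (36.4% each), not far from the 25.9% and 32.8% of all genes. Tex11, on the X chromosome, had 66.3 FPKM in labelled PlpSC and 9.84 FPKM in labelled SG, whereas the mismatch repair gene Mlh3 had 10.1 FPKM in labelled PlpSC and 27.4 FPKM in labelled SG.

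Meiotic entry genes were higher in 3 of 7 and lower in none, with a median of 0.28 (-1.03 on the all-gene scaling). Stra8, the retinoic acid target that starts meiosis, had 47.1 FPKM in labelled PlpSC and 18.6 FPKM in labelled SG. Dazl, a germ cell translation regulator, had 520.0 FPKM in labelled PlpSC and 129 FPKM in labelled SG. Differentiating spermatogonia genes were higher in 7 of 9, with a median of 1.00 (-0.29 on the all-gene scaling), and 2 of the 9 reached 5 FPKM in 1 library only. Kit, the receptor for stem cell factor, had 19.0 FPKM in labelled PlpSC and 5.59 FPKM in labelled SG. Dmrtb1, which guards the exit from mitosis, was lower, with 38.1 FPKM in labelled PlpSC and 219 FPKM in labelled SG. Of 22 undifferentiated spermatogonia genes, 6 reached 5 FPKM, 3 of them in 1 library only. Etv5, which entered through labelled PlpSC alone, had 20.7 FPKM in labelled PlpSC and 4.42 FPKM in labelled SG. Id4 had 19.7 FPKM in labelled PlpSC and 73.1 FPKM in labelled SG.

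Replication genes were higher in 18 of 37 and lower in 6, with a median of 0.57 (-0.75 on the all-gene scaling). Among the Mcm helicase genes, Mcm5 had 80.5 FPKM in labelled PlpSC and 23.4 FPKM in labelled SG, while Mcm7 had 65.0 FPKM in labelled PlpSC and 109 FPKM in labelled SG. Rrm2, which makes deoxynucleotides, had 26.0 FPKM in labelled PlpSC and 8.65 FPKM in labelled SG. Pcna, the sliding clamp, had 197 FPKM in labelled PlpSC and 215 FPKM in labelled SG. Cell division genes were centred at -0.02, with 5 of 24 higher (20.8%) and 8 lower (33.3%), near the 25.9% and 32.8% of all genes.

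Clustered histone genes, whose replication-dependent members supply new chromatin, reached 5 FPKM in 61 of 69 cases. Of these, 47 were higher and 5 lower in labelled PlpSC, with a median of 1.495, and 53 were highest of the 4 libraries there. Their FPKM summed to 55559 in labelled PlpSC and 24886 in labelled SG. By class, the medians were 2.06 for H1, 1.86 for H4, 1.48 for H2B, 0.94 for H3 (-0.35 on the all-gene scaling) and 0.89 for H2A (-0.41 on the all-gene scaling). All 13 H4 genes were above 0 on the deposited scale and 12 passed 1.5-fold. By cluster, Hist1 genes had a median of 1.69 with 42 of 50 higher, and Hist2 genes one of -1.03 with 2 of 7 higher and 4 lower. The testis linker histone Hist1h1t, first made in pachytene, was the only lower gene of Hist1, with 520 FPKM in labelled PlpSC and 2227 FPKM in labelled SG. Many of these genes are near-identical copies among which reads can be divided, so single values are uncertain.

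Replication-dependent histone mRNAs end in a stem-loop instead of a poly(A) tail, and a library of total RNA keeps them. The stem-loops of 5 genes are shown: those of the highest log2 ratio (Hist1h4n), the highest H2B ratio (Hist1h2bk), the highest level in labelled PlpSC (Hist1h4c), the single lower Hist1 gene (Hist1h1t) and the lowest ratio (Hist2h2aa2). Capitals mark the letters of the loop and its stem, and sequences are from GENCODE M21 transcripts on GRCm38.
Hist1h4n, chr13:21831793-21831818, minus strand: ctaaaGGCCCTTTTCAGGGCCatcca
Hist1h2bk, chr13:22036295-22036320, plus strand: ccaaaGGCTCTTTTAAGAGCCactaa
Hist1h4c, chr13:23698084-23698109, minus strand: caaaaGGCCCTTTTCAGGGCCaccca
Hist1h1t, chr13:23696520-23696545, plus strand: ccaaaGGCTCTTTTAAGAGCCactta
Hist2h2aa2, chr3:96239779-96239804, minus strand: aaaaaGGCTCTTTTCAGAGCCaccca
The capital letters of Hist1h2bk (log2 ratio 3.16) and Hist1h1t (-2.10) are the same, so these letters do not separate a higher gene from a lower one. Transcripts were searched on their own strand for 16 letters in a row, GG, any pair, CTT, any base, T, any base, AG, any pair and CC. They were found in 46 of the 69 histone symbols and in 201 of 55341 genes in all (0.363%). The 41 that reached 5 FPKM and held the letters had a median of 1.63, and the 20 without them one of 1.31.

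**Figure D3:**
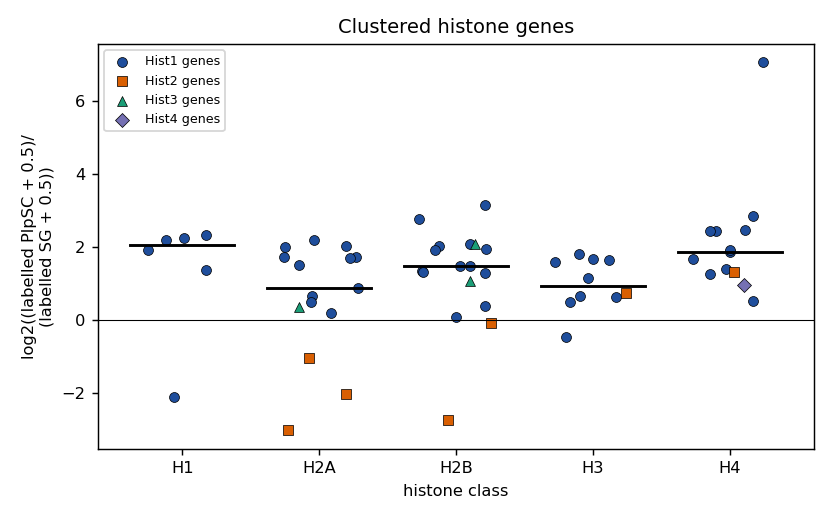
Each point is a clustered histone gene at 5 FPKM or more in either library, placed by class and by its log2 ratio of labelled PlpSC to labelled SG, with the class median as a bar. Hist1 genes (circles) lie mostly above 0 and Hist1h4n is the highest at 7.06. The 4 lower genes outside Hist1 are Hist2 genes (squares), and the H2A and H3 medians lie below 0 on the all-gene scaling.

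Cytosolic ribosomal protein genes had 42 of 77 higher in labelled PlpSC, none lower and a median of 0.64 (-0.70 on the all-gene scaling). Genes of this family have many processed copies in the genome, so reads can be divided among them. Their sum was 80364 FPKM in labelled PlpSC and 51127 FPKM in labelled SG, and 66 of 77 were highest of the 4 libraries in labelled PlpSC. Of the 3 testis copies of such genes, 2 were lower, with a median of -1.20. Mitochondrial ribosomal protein genes (-0.07), proteasome subunits (0.03, and -1.29 on the all-gene scaling), translation initiation factors (-0.05) and cytosolic aminoacyl-tRNA synthetases (-0.10) stayed near the median of all genes. So did the hnRNP proteins (0.04, and -1.26 on the all-gene scaling). SR splicing factors had 3 of 10 higher, near the 25.9% of all genes, and none lower, with a median of 0.33 (-0.99 on the all-gene scaling). Among the broad families, 58 of 149 Zfp zinc finger genes (38.9%) were lower and 21 (14.1%) higher, with a median of -0.22. Of 165 solute carrier genes, 65 (39.4%) were lower and 37 (22.4%) higher, with a median of -0.25. Over all genes 32.8% were lower and 25.9% higher, so only the higher share of the Zfp genes lay well away from those.

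Respiratory chain and ATP synthase genes had a median of -0.22, with 13 of 81 higher and 16 lower. Glycolysis genes had 10 of 18 lower and 3 higher, with a median of -0.60. The sperm glucose transporter gene Slc2a3 had 101 FPKM in labelled PlpSC and 1132 FPKM in labelled SG. Cholesterol synthesis genes had 9 of 20 higher and 2 lower, with a median of 0.43 (-0.86 on the all-gene scaling).

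Genes of the X chromosome stood apart from the autosomes. Of 352 X-linked genes, 249 (70.7%) were higher and 31 (8.81%) lower in labelled PlpSC, with a median of 1.30. Of 10101 autosomal genes, 24.3% were higher and 33.6% lower, with a median of -0.11. The medians of single autosomes ranged from -0.25 on chromosome 8 to 0.09 on chromosome 13, which carries the Hist1 cluster. The median X-linked level was 6.18 FPKM in labelled SG, 14.9 FPKM in labelled PlpSC, 2.17 FPKM in labelled L/ZSC and, at the lowest, 1.30 FPKM in labelled PaSC. In labelled PlpSC 282 of the 352 had their highest level of the 4 libraries, as did 4207 of the 10101 autosomal genes. The X median stayed above the autosomal one among the genes at 5 FPKM or more in both libraries, at 0.80 for 192 X-linked genes against -0.11 for 8227 autosomal genes. Without the genes of the somatic cell lists the X median was 1.31, but 348 of the 352 genes remained, so it could hardly move. The part of somatic cells in it was not tested.

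The difference depended on the level in labelled SG. Under 2 FPKM it went the other way, with a median of 2.15 for 46 X-linked genes and 2.59 for 295 autosomal genes. From 2 to 5 FPKM the median was 1.77 for 104 X-linked genes and 1.11 for 641 autosomal genes. Genes of both classes had entered through labelled PlpSC alone. Among genes at 20 FPKM or more in labelled SG, the median was 0.34 for 71 X-linked genes and -0.46 for 5143 autosomal genes. Between 5 and 20 FPKM it was 0.83 for 131 X-linked genes and 0.05 for 4022 autosomal genes. The highest X-linked genes in labelled PlpSC were ribosomal protein genes: Rpl39 had 1015 FPKM in labelled PlpSC and 120 FPKM in labelled SG, and Rpl36a had 591 FPKM in labelled PlpSC and 87.5 FPKM in labelled SG. Germ cell genes of the X chromosome were among them too. Taf7l, a TFIID subunit of male germ cells, had 205 FPKM in labelled PlpSC and 31.5 FPKM in labelled SG. Among the lower X-linked genes were Rhox5 and Gata1, both expressed in Sertoli cells, with 10.9 and 9.50 FPKM in labelled PlpSC, against 34.4 and 27.7 FPKM in labelled SG.

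The 7 Y-linked genes at 5 FPKM were all higher, with a median of 2.70. Eif2s3y, a translation initiation subunit required for spermatogonial proliferation, had 88.3 FPKM in labelled PlpSC and 13.1 FPKM in labelled SG. Zfy2, a zinc finger gene, had 13.2 FPKM in labelled PlpSC and 0.747 FPKM in labelled SG. It entered through labelled PlpSC alone and could only lie above 0. How many of the 7 entered in this way was not counted, so their shared direction is partly set by the filter.

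**Figure D4:**
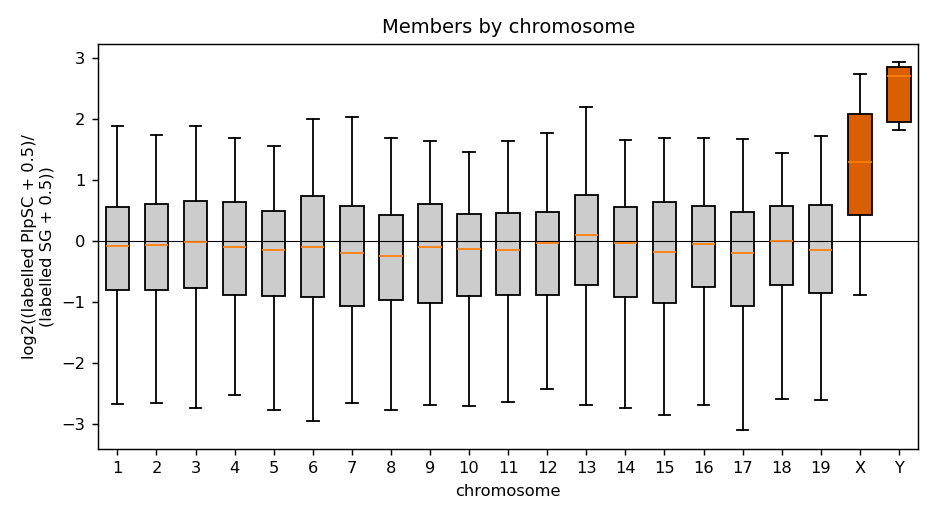
Boxes show the quartiles and median of the log2 ratio of labelled PlpSC to labelled SG for the genes of each chromosome, with whiskers from the 5th to the 95th percentile. The medians of X (1.30) and Y (2.70), whose boxes are orange, lie above those of the autosomes, which lie between -0.25 and 0.09. On the all-gene scaling the X median is 0.08.

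Many testis genes are copies of a broadly used gene, and some of those parents lie on the X chromosome. Taking both genes of a pair from the same libraries removes the scaling from the difference, apart from the added 0.5. Each pair joined a gene taken as the germ cell one to a broadly used relative, which need not be its parent. Of 32 pairs with both genes at 5 FPKM or more, the germ cell gene had the lower log2 ratio in 27. In 23 it was lower by more than 1, and the median difference was -2.09. In 13 pairs the germ cell gene was lower and the broad gene higher beyond 1.5-fold. Of the 13 pairs with an X-linked broad gene, 12 of these broad genes were higher in labelled PlpSC, as were 70.7% of all 352 X-linked genes. In 7 of those pairs the germ cell gene was lower. The counts of higher genes are those of the deposited scale.

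Pgk2, the phosphoglycerate kinase of sperm, had 8.84 FPKM in labelled PlpSC and 89.7 FPKM in labelled SG, whereas its X-linked parent Pgk1 had 40.4 FPKM in labelled PlpSC and 22.7 FPKM in labelled SG. The ribosomal protein gene Rpl39l had 194 FPKM in labelled PlpSC and 446 FPKM in labelled SG, a log2 ratio of -1.20 against 3.08 for its X-linked parent Rpl39. Autosomal pairs were split as well: the testis cytochrome c gene Cyct had 59.1 FPKM in labelled PlpSC and 230.2 FPKM in labelled SG, and Cycs had 66.9 FPKM in labelled PlpSC and 41.8 FPKM in labelled SG. The cyclin A2 gene Ccna2 had 29.8 FPKM in labelled PlpSC and 10.3 FPKM in labelled SG, opposite to Ccna1. The germ cell gene had the higher log2 ratio in 5 pairs, among them Rad21l and Rad21, Calr3 and Calr, Ddx3y and Ddx3x, and Slc25a31 and Slc25a5.

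Genes of somatic cells of the testis moved with the comparison, in opposite directions by cell type. Macrophage and leukocyte genes were higher in 11 of 11, with a median of 3.46. Of the 11, 9 reached 5 FPKM in labelled PlpSC only, so these could only lie above 0. With 5 FPKM required in both libraries the median was 2.80, which rests on Lyz2 and Mrc1 alone. The 15 genes of the list summed to 502 FPKM in labelled PlpSC and 37.6 FPKM in labelled SG. C1qa, a complement subunit made by macrophages, had 83.9 FPKM in labelled PlpSC and 4.75 FPKM in labelled SG. Lysozyme gene Lyz2 had 138 FPKM in labelled PlpSC and 8.72 FPKM in labelled SG. None of these 15 genes was listed at 0 in either library.

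Interstitial fibroblast genes were higher in 12 of 12, with a median of 3.36, but 7 of the 12 reached 5 FPKM in labelled PlpSC only and could only lie above 0. The 14 genes of the list summed to 1413 FPKM in labelled PlpSC and 256 FPKM in labelled SG. Col3a1, a fibrillar collagen, had 233 FPKM in labelled PlpSC and 12.7 FPKM in labelled SG. Collagens as a family were higher in 16 of 20, with a median of 2.66, but 13 of the 20 reached 5 FPKM in 1 library only, and with genes at 1 FPKM in either library the median was 1.71. Col18a1, of the basement membrane, was lower, with 34.4 FPKM in labelled PlpSC and 79.4 FPKM in labelled SG. Leydig cell genes were higher in 5 of 8, with a median of 2.63 that was 1.95 with genes at 1 FPKM in either library and 0.18 with 5 FPKM required in both. Peritubular myoid genes were higher in 5 of 6, with a median of 1.92, and 2 of the 6 reached 5 FPKM in labelled PlpSC only. Hsd3b6, a steroid dehydrogenase of Leydig cells, had 76.5 FPKM in labelled PlpSC and 2.96 FPKM in labelled SG.

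Sertoli cell genes were lower in 18 of 22, with a median of -0.91, and the 25 genes of the list summed to 2953 FPKM in labelled PlpSC and 5002 FPKM in labelled SG. Clu, an abundant secreted chaperone, had 506 FPKM in labelled PlpSC and 1014 FPKM in labelled SG, and Amh, the anti-Müllerian hormone of immature Sertoli cells, had 12.3 FPKM in labelled PlpSC and 30.8 FPKM in labelled SG. The exception above 1.5-fold was the iron carrier gene Trf, with 53.1 FPKM in labelled PlpSC and 10.9 FPKM in labelled SG. Tight junction and adhesion genes of the tubule were lower in 9 of 14 and higher in none, with a median of -0.81. The part of somatic cells in the ratios of other genes was not tested.

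Lysosomal and immune families lay high as well. Cathepsins were higher in 9 of 11, with a median of 1.79, and MHC class I antigen presentation genes in 6 of 7, with a median of 1.95. Of the 11 cathepsins 4, and of the 7 MHC class I genes 2, reached 5 FPKM in labelled PlpSC only and could only lie above 0. Ctss, a cathepsin of antigen-presenting cells and one of these 4, had 33.1 FPKM in labelled PlpSC and 1.96 FPKM in labelled SG. Immediate early genes, which respond within minutes to stimulation and also to cell handling, were higher in 12 of 18 and lower in none, with a median of 0.82 (-0.49 on the all-gene scaling). Fos had 325 FPKM in labelled PlpSC and 79.9 FPKM in labelled SG. Cyr61 was within 1.5-fold, with 31.1 FPKM in labelled PlpSC and 37.7 FPKM in labelled SG. Imprinted genes were higher in 6 of 11, with a median of 1.15 (-0.15 on the all-gene scaling, and 0.10 with 5 FPKM required in both libraries). Meg3, a maternally expressed lncRNA, had 7.49 FPKM in labelled PlpSC and 0.530 FPKM in labelled SG.

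Transcription factors of the A-MYB type drive many pachytene genes, so promoters were searched for the letters AACTGNC, a core of the sites bound by MYB proteins, where N is any base. Windows of 300 bases, from 250 before to 50 after the start site, came from RefSeq (GRCm38.p6), and both strands were read. A window was found for 8513 of the 10487 genes (81.2%). The letters were in 12.9% of all 27025 promoters and in 11.7% of those of the 8513 genes. They were in 25.9% of promoters (68 of 263) of genes lower by more than 8-fold in labelled PlpSC, in 16.7% of those lower by 4 to 8-fold and in 10.6% of those within 1.5-fold. Among genes higher by more than 4-fold the share was 13.0%.

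Matched sites are shown for 6 genes of low log2 ratio, chosen because their promoters held the letters. Genes of lower ratio without a match were passed over, and the 6 are examples and not a full list. They say nothing of how frequent the letters were, which were in 25.9% of promoters of genes lower by more than 8-fold. Capitals mark the matched letters, and each run is read on the strand that matches AACTGNC (GRCm38.p6).
1700003C15Rik, chr5:11769325-11769349, minus strand: gttggttccAACTGTCagttgctgg
Pgam2, chr11:5803770-5803794, plus strand: cccagccctAACTGCCaatcagcat
Gm17359, chr3:79345349-79345373, plus strand: atccttggcAACTGCCcggcccagt
1700023F02Rik, chr10:66200598-66200622, plus strand: ctctattcaAACTGCCctaatgatt
1700029F12Rik, chr13:97034387-97034411, minus strand: ttacagttaAACTGCCagtgttcca
Speer2, chr16:69863795-69863819, minus strand: ccggccagcAACTGACagttggaac
The log2 ratios of these 6 genes lay between -4.17 and -3.66. Pgam2, a phosphoglycerate mutase of muscle and sperm, had 41.0 FPKM in labelled PlpSC and 575 FPKM in labelled SG, while its broadly used relative Pgam1 had 86.9 FPKM in labelled PlpSC and 82.3 FPKM in labelled SG.

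Base composition moved with these classes. The median GC content was 54.3% in promoters of genes lower by more than 8-fold and 61.3% over the 8513 genes. The same letters read backwards, CNGTCAA, were in 11.8% of the promoters lower by more than 8-fold and in 7.67% of the 8513. Among promoters under 50% GC, AACTGNC was in 38.8% of those lower by more than 8-fold and in 17.7% of all, and between 50 and 60% GC in 28.6% and 14.8%. At 60% GC or more it was in 7.04% of 71 promoters and in 8.76% of all. The RFX letters GTTGCCATG, whose start GTT can be shared with AACTGNC read on the other strand, were in 2.28% of promoters lower by more than 8-fold (6 of 263), in 2.57% of those lower by 4 to 8-fold, in 0.717% of the 8513 and in 0.759% of all promoters. In all, 9 motifs were searched. The SP1 letters GGGCGG were in 35.4% of promoters lower by more than 8-fold, in 66.2% of the 8513 and in 35.9% of all promoters. The STRA8 letters CNCCTCAG were in 8.37%, 9.57% and 7.97% of the same sets, and the CCAAT letters in 42.2%, 39.8% and 37.9%. The CRE letters were in 1.90%, 3.77% and 1.88% of these sets, and the NRF1 letters in 0.380%, 2.30% and 0.977%. The E2F letters were in 1.14%, 2.31% and 1.11%, and the PU.1 letters in 0%, 0.364% and 0.437%. A match is a description of the letters and not a bound site.

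**Figure D5:**
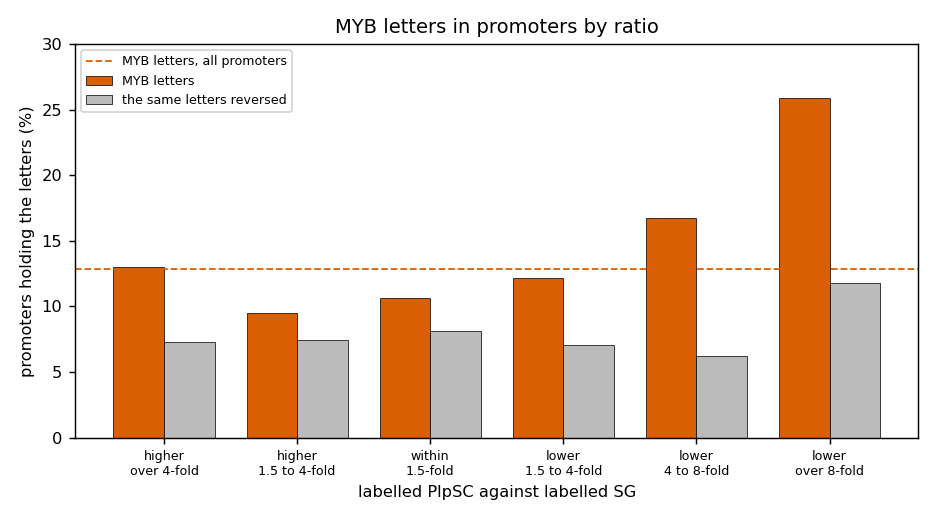
Bars give the share of promoters that hold AACTGNC (orange) or the same letters reversed (grey) in classes of genes by their ratio of labelled PlpSC to labelled SG, and the dashed line the share of AACTGNC in all promoters, 12.9%. The orange bar is highest, at 25.9%, for genes lower by more than 8-fold. The grey bar is 11.8% in that class.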

How the data were processed

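RNA of 4 libraries of mouse spermatogenic cells, 1 per stage, was sequenced, and the deposited FPKM of RefSeq genes were calculated by the authors with Cuffdiff after TopHat alignment to mm10. For tool versions and scaling between the libraries, this was not given in the sources used here. Genes at 5 FPKM or more in labelled PlpSC or labelled SG were compared as log2((labelled PlpSC + 0.5)/(labelled SG + 0.5)) with a 1.5-fold threshold, using Python 3.11.15, pandas 2.3.3, numpy 2.4.6 and matplotlib 3.10.9. The calculations were tested on simulated data. The genes and lists were chosen with earlier results of these data known. Named genes were the 12 largest and 12 smallest ratios, up to 6 listed at 0 each way, the 4 highest and the 2 most extreme each way of each list, the 4 highest of the 5 symbol families at either end, paralog pairs, the 10 highest of each library, Rbakdn, Ptbp2 and Nudcd3. Other named genes, among them Taf7l, Zfy2, Crisp2 and Amh, were chosen after their values were seen. Chromosomes and promoters came from RefSeq (GRCm38.p6), where 10033 genes were found by symbol, 428 through an older one, and 26 were not found. Alternatives were pseudocounts of 0.1 and 1, other filters, scalings and folds. The FPKM table holds no counts, so depth is unknown and no interval is given.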

Additional observations from a re-analysis of the deposited data

Results flagged for a closer look

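Among the short RNA genes left out of the comparison, 19 were listed at 0 in labelled SG and at 5 FPKM or more in labelled PlpSC, a signal in data that the comparison does not use. The reverse, 0 in labelled PlpSC and 5 FPKM or more in labelled SG, was seen for 2. Of the 52 left-out genes that reached 5 FPKM, 46 were higher and 3 lower in labelled PlpSC. The cause was not tested.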

How the results depend on the processing

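The gene counts depended on the filter, the fold and the scaling. With 5 FPKM required in both libraries 1735 genes were higher, with a 2-fold threshold 1627 were higher, and with a 4-fold threshold 508 were higher and 1008 lower. Scaling by the upper quartile gave 3444 higher and 2812 lower genes, so that the higher genes made up 55.1% of those past 1.5-fold, against 44.1% on the deposited scale and 33.5% at 4-fold. Scaling to the same sum over all genes, short RNA genes included, was chosen after seeing the data and gave 606 higher and 8090 lower genes and a median of -1.35. The median of the ADAM genes turned to 0.14 when genes at 1 FPKM in either library entered, against -3.03. On that scaling 11 list medians above 1.5-fold turned below 0, the X-linked median was 0.08, and named genes of small positive ratio turned below 0 as well, which were not counted. Leaving that scaling out, ADAM was the single reversal among 518 recomputed list medians, 16 moved by more than 1.5-fold and 501 did not. The 16 all came with another filter on low values and include, beside those given in the text, the round and elongating spermatid genes (-1.45 with genes at 1 FPKM, against -2.34). Of 3825 recomputed values of 440 named genes, 23 moved and none reversed, and the X-linked median lay between 0.80 and 1.51, again leaving that scaling out. No paired analysis was possible because each stage had 1 library, and for the same reason no library could be left out. Depth is unknown, so counting error could not be given for low genes.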
